A study of Homo sapiens with 20 samples.

Results

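The 10 genes described here are ATF4, ATF3, ATF5, DDIT3, CEBPB, CEBPG, TRIB3, CHAC1, SESN2 and DDIT4. They are transcription factors of the integrated stress response (ISR), their dimer partners, and targets that feed back on the response. They were chosen by name for these roles, but with earlier results of these data known, as were the lists of related genes below. Their counts beside the shares over all genes are therefore descriptions, not independent tests. They are 10 of the 57500 genes listed in each count table. The RNA was sequenced from NTERT cells, a line of human keratinocytes immortalized with hTERT. WT cells carried a control guide RNA. GCN2KO cells were edited with CRISPR/CAS9 in EIF2AK4, the gene of the eIF2 kinase GCN2, and were kept as an early-passage pool rather than as a clone. Guides to either of 2 exons are described, and which of them made the sequenced cells, or whether the 5 replicates came from a single pool, is not given in the sources used here. All cells were differentiated in serum and calcium as a sheet. They were left unwounded, or were harvested 6 h after high-density wounding (HDW), in which pipet tips are drawn across the sheet in perpendicular directions. This gave 4 groups of 5 replicates, WT and GCN2KO cells each with and without HDW. The edit and any other difference between the edited and control cells cannot be told apart. Nothing in the labels says that the replicates were separate experiments, so the p-values measure the spread between these cultures.

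In the ISR, kinases that sense amino acid shortage, misfolded protein in the endoplasmic reticulum (ER), double-stranded RNA or heme shortage phosphorylate the translation factor eIF2. General translation falls, whereas the ATF4 mRNA is translated more. ATF4 is a basic leucine zipper factor that binds DNA with partners such as CEBPG and CEBPB, and it raises transcription of ATF3, ATF5, DDIT3 (which encodes CHOP), TRIB3, CHAC1, SESN2 and DDIT4. ATF4, ATF5 and CHOP are also controlled during translation, through upstream open reading frames, so their mRNA levels do not give their protein levels.

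The mRNA of the edited gene was lower in all 10 GCN2KO libraries than in every WT library. In unwounded cells, normalized read counts of EIF2AK4 were 4355 ± 149 (SD, n = 5) for WT against 894 ± 61.8 (SD, n = 5) for GCN2KO (edgeR log2 fold change -2.28, SE 0.065, adjusted p = 4.29e-13). The libraries held 14083504 to 34611570 counts on genes. Of 10 keratinocyte markers, 9 were at 1 CPM or more in every group, and KRT1 was the exception. For WT libraries their summed level was 13267 to 13633 CPM unwounded and 14505 to 15147 after HDW, and for GCN2KO libraries 14672 to 17265 unwounded and 17916 to 19117 after HDW, so it moved with both genotype and HDW. The leukocyte markers PTPRC, CD3E and LYZ were below 0.1 CPM in every group, whereas CD68 and CD14 were not, and the list summed to 56.8 to 65.9 CPM in WT unwounded and 16.7 to 65.9 CPM over all libraries. Fibroblast markers summed to 22.3 to 37.3 CPM, with COL1A2, COL3A1 and PDGFRA below 0.1 CPM in every group. COL1A1 was at 1 CPM or more in every group, and DCN in all but WT HDW. Melanocyte markers summed to 1.94 to 3.65 CPM, with TYR, DCT and SOX10 below 0.1 CPM in every group. PMEL was at 1 CPM or more in every group, and MLANA in the GCN2KO groups alone. Endothelial markers summed to 0.643 CPM at most. The part of these shifts in the results was not tested. In bulk RNA, fewer cells that use a gene and less of its RNA per cell cannot be told apart. Within GCN2KO HDW, replicate 5 lay farthest from the rest. The SD of its log2 differences from the mean of the other 4 was 0.226, against 0.0736 to 0.159 for the others. The 5 GCN2KO unwounded libraries were as loose, at 0.179 to 0.235, and the WT libraries were closer, at 0.0807 to 0.155. Without replicate 5 of GCN2KO HDW, the log2 values of the 10 genes moved by at most 0.13 in the comparisons that use it. The test then passed for ATF4 between genotypes after HDW and for DDIT4 with HDW in GCN2KO cells, and no other call of the 10 changed.

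The promoters of the 10 genes were searched for short motifs. These were the composite C/EBP-ATF core, the cAMP response element and its arm, the AP-1 site, CCAAT and CCACG. All 10 genes matched a table of RefSeq promoters (GRCh38.p14), with 19 start sites between them. The windows ran from 250 bases before to 50 after each start. The core TGATGNAA is the composite C/EBP-ATF site that ATF4 binds with a C/EBP partner. On either strand, it was found in windows of 3 of the 10 genes (ATF3, CEBPG and CHAC1), against 4.46% of 27305 genes. Counted by window it was in 3 of 19, against 3.62% of all 35116 promoters. The 10 genes had more windows per gene than the whole, which gives a count by gene more room for a match. A match is a description of the letters in the window, not evidence of binding. The stretches that lie outside annotated exons are shown for ATF3 and CEBPG, 28 bases around the match for CHAC1, where the match lies in an annotated exon, and the stretch of DDIT3, the gene of CHOP, for contrast. Capitals mark the core in ATF3, CEBPG and CHAC1, and CCAAT on either strand in DDIT3. All are read 5′ to 3′ on the strand of the gene.
ATF3, chr1:212565157-212565333, + strand: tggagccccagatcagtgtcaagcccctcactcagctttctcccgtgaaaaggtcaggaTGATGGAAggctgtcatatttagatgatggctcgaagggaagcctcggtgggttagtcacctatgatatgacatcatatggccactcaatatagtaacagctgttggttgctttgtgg
CEBPG, chr19:33373896-33374112, + strand: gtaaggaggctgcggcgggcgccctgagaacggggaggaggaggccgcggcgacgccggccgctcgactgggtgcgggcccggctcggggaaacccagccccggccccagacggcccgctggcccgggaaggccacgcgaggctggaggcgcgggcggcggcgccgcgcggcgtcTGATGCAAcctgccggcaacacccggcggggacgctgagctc
CHAC1, chr15:40953252-40953279, + strand: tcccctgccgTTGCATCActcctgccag
DDIT3, chr12:57520518-57520709, - strand: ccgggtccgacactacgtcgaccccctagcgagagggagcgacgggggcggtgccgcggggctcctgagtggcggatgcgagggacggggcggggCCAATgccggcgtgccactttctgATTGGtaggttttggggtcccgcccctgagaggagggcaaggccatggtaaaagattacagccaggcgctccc
Counted in bases from a start site, the core began at -191 for ATF3 and at -42 for CEBPG, both on the strand of the gene. That of CHAC1 began at -209 and read on the opposite strand. TRIB3, SESN2, DDIT4, DDIT3, ATF4, ATF5 and CEBPB had no match to the core in these windows, which says only that the letters are absent there.

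Shorter motifs were common among all promoters. CCAAT, the CCAAT box, was in windows of 7 of the 10 genes, against 39.7% of all genes. It was in 9 of the 19 windows, against 34.6% of all promoters. CCACG, the arm of the ER stress element that is read after a CCAAT box, was in 6 of the 10, against 42.1% of genes. It was in 10 of 19 windows, against 38.1% of promoters. TGACG, a single arm of the cAMP response element, was in 3 of the 10 (ATF4, ATF5 and CEBPB), against 28.4% of genes. It was in 4 of 19 windows, against 24.6% of promoters. The full TGACGTCA, which contains that arm, was in 0 of the 10 and 0 of 19 windows, against 2.25% of genes and 1.85% of promoters. TGANTCA, the AP-1 site, was in 2 of the 10 (ATF5 and DDIT3), against 9.37% of genes. It was in 3 of 19 windows, against 7.71% of promoters. DDIT3 had 2 CCAAT matches, 1 on each strand, and no exact CCACG in the same window. Only exact matches were counted, so a near match is left out, such as the ccact that follows CCAAT in the stretch above.

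**Figure D1:**
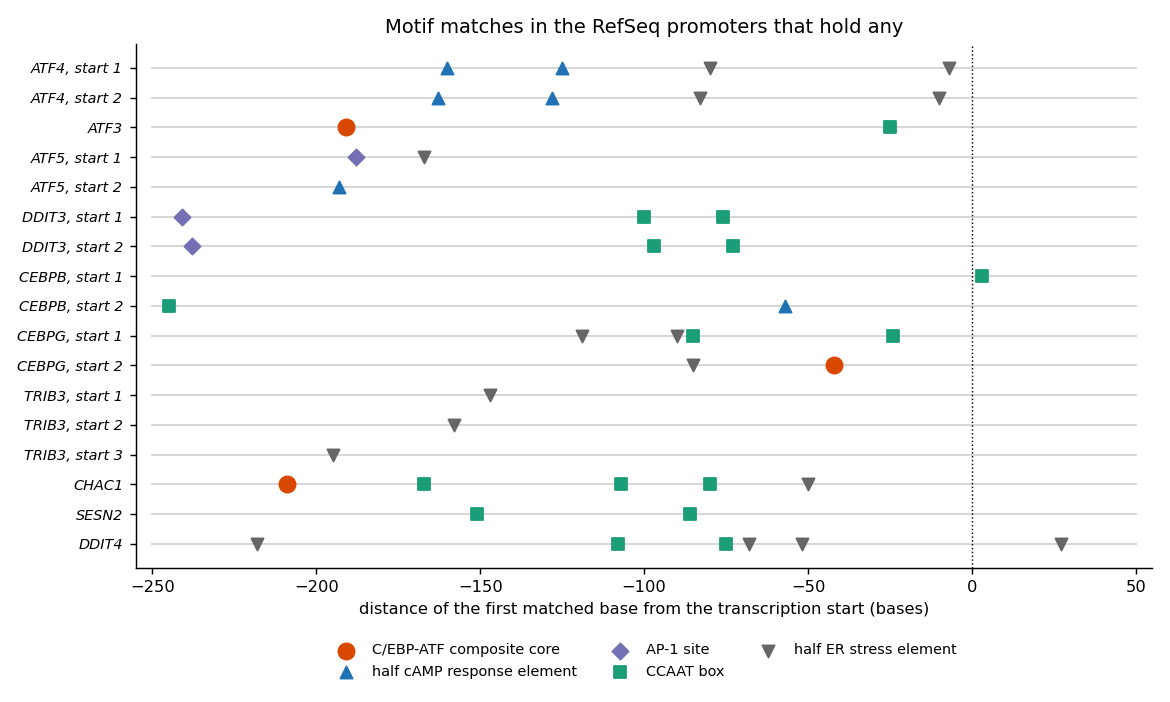
Matches to 5 motifs on either strand in the promoter windows of the 10 genes, by distance in bases of the first matched base from each RefSeq start site (0, dotted line). Each row is a start site that holds at least 1 match, and the composite core (large circles) is in single windows of ATF3, CEBPG and CHAC1, at -191, -42 and -209.

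Levels were compared between genes as FPKM, reads scaled to library size and to exon length, with union exon lengths from GENCODE 44. DDIT4 and ATF4 were the most abundant of the 10 in all 4 groups, with 297 ± 15 and 196 ± 14.8 FPKM (SD, n = 5) in WT unwounded cells. CEBPB followed there with 65.6 ± 4.22 FPKM. CEBPG (23.8 ± 1.48), DDIT3 (18.9 ± 5.58), SESN2 (14.4 ± 1.65), ATF5 (12.2 ± 0.842) and TRIB3 (11.7 ± 4.07) formed a chain in which each overlapped the next in its range over replicates. CHAC1 (2.97 ± 1.07) and ATF3 (1.97 ± 0.42) were the least abundant and also overlapped.

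The order changed with genotype and HDW. In GCN2KO unwounded cells TRIB3 (152 ± 3.98 FPKM) and DDIT3 (137 ± 23.2 FPKM) held ranks 3 and 4, overlapping each other and apart from CEBPB at 70.8 ± 4.22 FPKM. In WT HDW cells CEBPB, TRIB3 and DDIT3 stood at 75.4 ± 7.45, 72.5 ± 20.6 and 55.6 ± 8.44 FPKM, each overlapping the next. ATF5 was the least abundant in both GCN2KO groups, with 5.69 ± 0.54 FPKM unwounded and 5.7 ± 0.618 FPKM after HDW. ATF3 was last in both WT groups. The order also depended on the length used. With the longest transcript in place of the exon union, ATF3 had 1.9-fold higher FPKM values and ATF5, TRIB3, CHAC1, ATF4 and DDIT3 had 1.22-fold to 1.44-fold higher ones, whereas CEBPB and SESN2 kept theirs and CEBPG and DDIT4 moved by 1.08-fold at most. In WT unwounded cells SESN2 (14.4) then ranked below ATF5 (17.5) and TRIB3 (16.4), and in WT HDW cells TRIB3 (101.2) ranked above CEBPB (75.4). In GCN2KO unwounded cells ATF3 (35.4) ranked above SESN2 (30.6) and CHAC1 (30.4). DDIT4 and ATF4 still ranked highest in all 4 groups.

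Without a wound, the GCN2KO cells had more mRNA of most of these genes. A gene was called a DE gene when its mRNA differed by a log2 value of 1 or more in either direction and edgeR's quasi-likelihood test gave an adjusted p no higher than 0.05. Adjustment was by Benjamini and Hochberg over all genes tested. By this rule 6 of the 10 were higher (TRIB3, ATF3, CHAC1, DDIT3, CEBPG and SESN2) and 1 was lower (ATF5). Among all 15348 genes tested, 8.21% were higher and 8.22% lower. By adjusted p alone, 9 of the 10 passed, 8 of them higher, where 66.5% of all genes passed in either direction. The median log2 fold change was 1.11 over the 10 genes and 0.0042 over all genes.

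HDW raised several of these mRNAs in WT cells. DE genes were TRIB3, CHAC1 and DDIT3, 3 of the 10, all higher, where 2.62% of all genes were higher and 1.55% lower. By adjusted p alone 8 of the 10 passed, 7 higher and 1 lower (ATF5), against 51.3% of all genes in either direction. The median log2 fold change was 0.41 over the 10 genes and -0.0024 over all genes.

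In GCN2KO cells, HDW made 0 of the 10 a DE gene in edgeR and in DESeq2, and 6 of the 10 had an unadjusted p under 0.05 in edgeR. The share of all genes under that unadjusted threshold was not counted, but it is at least the 22.7% that passed by adjusted p. The count is thus not read as a response. Of all 15791 genes tested, 0.475% were called higher and 0.196% lower. By adjusted p alone 2 of the 10 passed, ATF4 and CEBPG, both lower, and both calls were lost in some settings, where 22.7% of all genes passed. The median log2 fold change was -0.17 over the 10 genes and -0.00097 over all genes.

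The interaction, which is the log2 change with HDW in GCN2KO cells minus that in WT cells in a fit of all 20 libraries, tests that difference directly. It was a DE difference for TRIB3, CHAC1 and DDIT3, all lower in GCN2KO cells, where 1.16% of all 16536 genes were called higher and 2.15% lower. By adjusted p alone 9 of the 10 passed, 8 lower and 1 higher (ATF5), against 23.7% of all genes. ATF3 did not pass.

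After HDW, the genotypes differed less in most of these mRNAs. GCN2KO HDW cells had 2 of the 10 as DE genes against WT HDW cells, ATF3 and DDIT3, both higher, where 7.1% of all 15855 genes were higher and 7.83% lower. By adjusted p alone 8 of the 10 passed, 6 higher and 2 lower (ATF5 and CEBPB), against 71.7% of all genes. Without replicate 1 of WT HDW, DDIT3 fell below the fold threshold (0.98) and 1 DE gene was left. Without replicate 2 of WT HDW, TRIB3 passed it (1.06) and there were 3. The comparisons share samples, since each group enters 2 pairwise comparisons and the interaction.

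**Figure D2:**
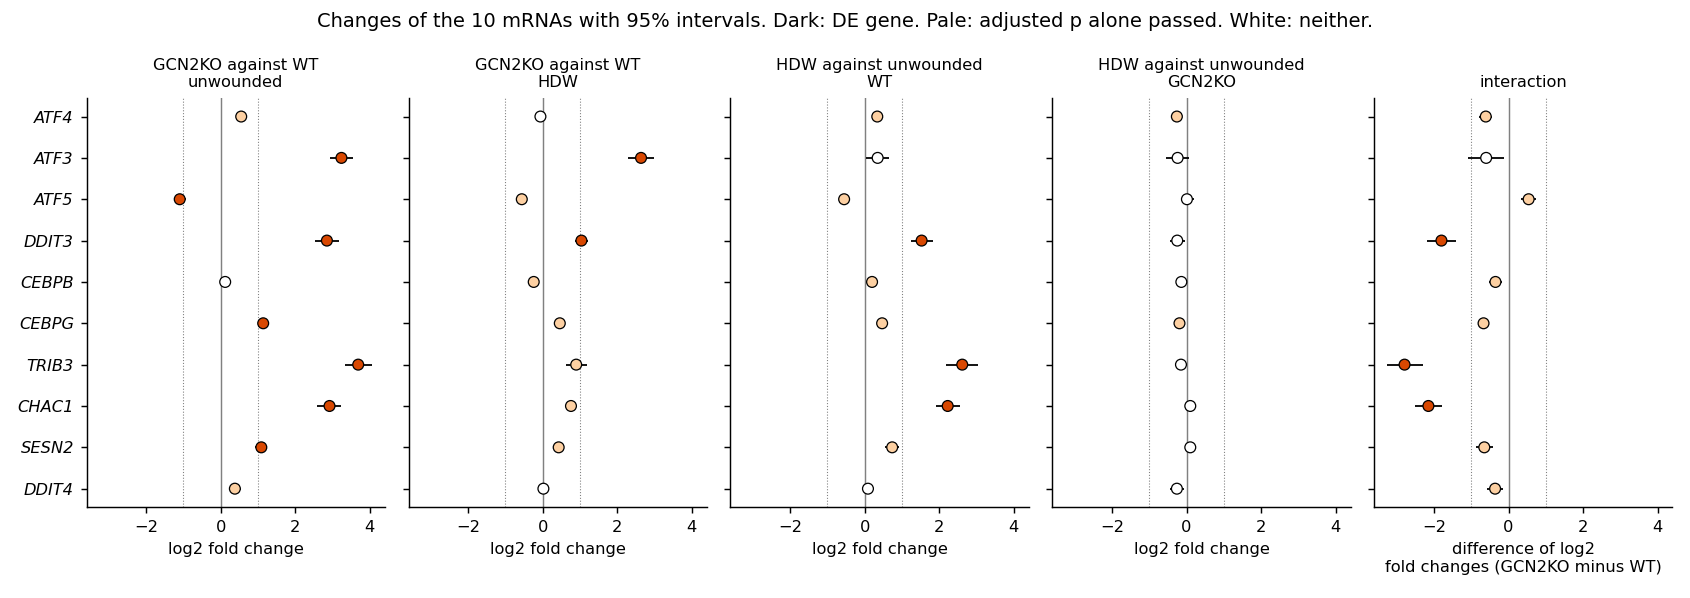
Log2 fold changes of the 10 mRNAs (edgeR) with approximate 95% intervals (horizontal lines, 1.96 SE on each side) in the 4 pairwise comparisons, and the interaction in the right panel. Dotted lines mark 1 and -1. Dark points are DE genes, pale points pass by adjusted p alone, and white points pass neither. All 10 points lie between -0.26 and 0.10 for HDW in GCN2KO cells, whereas TRIB3, CHAC1 and DDIT3 lie at 2.62, 2.23 and 1.53 for HDW in WT cells.

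ATF4, the central transcription factor of the response, differed modestly in mRNA (ENSG00000128272, chromosome 22, 39519695 to 39522683, + strand, GRCh38). WT unwounded cultures had 13156, 15644, 13969.7, 15617 and 15229 normalized read counts. Those of WT HDW had 18126, 18771, 18914, 18342 and 18916, all above the unwounded cultures. GCN2KO unwounded cultures had 23703, 19719, 22681, 19367 and 22174 and GCN2KO HDW cultures 16749, 17848, 17715, 17370.4 and 19723. Each GCN2KO unwounded culture was above each WT culture of either condition, and the GCN2KO HDW cultures overlapped both WT HDW and GCN2KO unwounded ones. In unwounded cells ATF4 was 1.47-fold higher in GCN2KO (edgeR log2 fold change 0.55, SE 0.077, adjusted p = 9.84e-06). HDW raised it 1.26-fold in WT cells (log2 fold change 0.34, SE 0.045, adjusted p = 1.55e-05) and gave a fall in GCN2KO cells (log2 fold change -0.26, SE 0.074, adjusted p = 0.0246). That fall passed narrowly, and the adjusted p ran from 0.0128 to 0.0636 as single libraries were left out. It no longer passed without replicate 1 or 5 of GCN2KO unwounded, or without any of replicates 1 to 4 of GCN2KO HDW. The interaction was -0.61 (SE 0.089, edgeR adjusted p = 2.85e-05). Between genotypes after HDW the test was not passed, with a log2 difference of -0.06 and a 95% interval of -0.15 to 0.03. Without replicate 5 of GCN2KO HDW this became -0.10 with an edgeR adjusted p of 0.0183.

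ATF3, a bZIP factor that ATF4 raises and that often represses, set itself apart by genotype rather than by HDW (ENSG00000162772, chromosome 1, 212565334 to 212620777, + strand). It had 183, 286, 170.3, 243 and 249 normalized read counts in WT unwounded and 239, 409, 287, 244 and 268 in WT HDW cultures. In GCN2KO cells it had 1526, 1984, 2677, 2156 and 2362 unwounded and 2234, 1834, 1863, 1936 and 1151 after HDW. The lowest GCN2KO culture of either condition, at 1151, was above the highest WT culture, at 409. ATF3 was 9.47-fold higher in GCN2KO cells unwounded (edgeR log2 fold change 3.24, SE 0.15, adjusted p = 5.89e-11) and 6.22-fold higher after HDW (log2 fold change 2.64, SE 0.17, adjusted p = 1.28e-08). Without replicate 5 of GCN2KO HDW, its lowest library, the second value was 2.76. HDW gave a log2 change of 0.35 in WT cells with overlapping groups (95% interval 0.04 to 0.66, edgeR adjusted p = 0.0748). This rested in part on replicate 2 of WT HDW, without which it was 0.19 (edgeR adjusted p = 0.198), whereas 5 of 18 other settings brought the adjusted p to between 0.00523 and 0.0425. In GCN2KO cells the change was -0.24 (-0.55 to 0.07, edgeR adjusted p = 0.285). The interaction of -0.60 had an interval of -1.09 to -0.12 and an edgeR adjusted p of 0.0798. It passed in 3 of 27 other settings, without replicate 1 of GCN2KO unwounded (-0.70, edgeR adjusted p = 0.0302), without replicate 1 of GCN2KO HDW (-0.69, 0.044) and with no filter on low counts (0.00344).

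ATF5, a bZIP factor that is controlled in translation much like ATF4, was the exception in direction (ENSG00000169136, chromosome 19, 49928702 to 49933935, + strand). Normalized read counts were 994, 903, 1077, 1022 and 1067 in WT unwounded and 717, 676, 673, 689 and 734 in WT HDW cultures. GCN2KO cultures had 529.8, 459.9, 496, 471 and 409 unwounded and 435, 462, 455, 453 and 564 after HDW. All 3 other groups were below WT unwounded without overlap, and all GCN2KO cultures were below all WT cultures. ATF5 was 2.14-fold lower in GCN2KO cells unwounded (edgeR log2 fold change -1.10, SE 0.079, adjusted p = 5.2e-09) and 1.47-fold lower after HDW (log2 fold change -0.56, SE 0.067, adjusted p = 4.21e-06). HDW lowered it 1.46-fold in WT cells (log2 fold change -0.55, SE 0.048, adjusted p = 2.24e-07), with a log2 change of 0.01 in GCN2KO cells (95% interval -0.16 to 0.19). The interaction was 0.54 (SE 0.1, edgeR adjusted p = 0.000465), the single positive one that passed. Without replicate 5 of GCN2KO HDW, its highest library there, the log2 difference between genotypes after HDW was -0.63, the change with HDW in GCN2KO cells -0.06 and the interaction 0.47. Of the exonic bases of ATF5, 22.1% are shared with NUP62 and IL4I1 on the opposite strand and with MIR4751, and the counting of such reads is not stated. NUP62 itself was lower by less in GCN2KO unwounded cells (edgeR log2 fold change -0.41, SE 0.072, adjusted p = 9.63e-05).

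**Figure D3:**
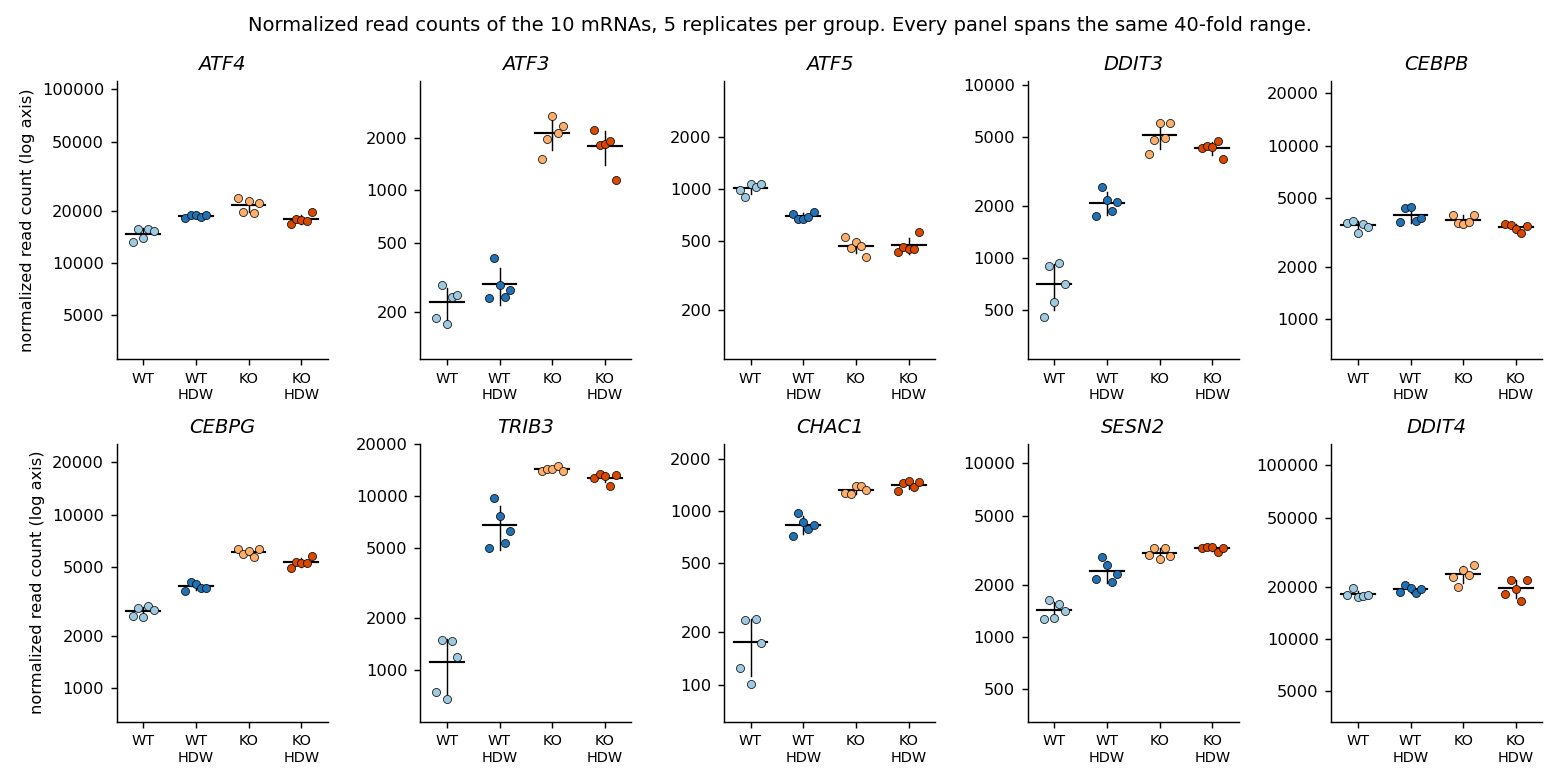
Normalized read counts (log axes that span the same fold range in each panel) of the 10 mRNAs in WT (blue) and GCN2KO (KO, orange) cultures, unwounded (pale) and after HDW (dark), with 5 replicates as points, the mean as a bar and the SD as a vertical line. TRIB3, CHAC1 and DDIT3 step up from WT unwounded to WT HDW to GCN2KO, ATF3 is high in both GCN2KO groups alone, ATF5 runs the other way, and CEBPB and DDIT4 lie nearly level.

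DDIT3 encodes CHOP, a factor that dimerizes with C/EBP proteins and is linked to cell death under long stress (ENSG00000175197, chromosome 12, 57516588 to 57521737, - strand). WT unwounded cultures had 455, 899, 557, 937 and 708 normalized read counts. WT HDW cultures had 1745, 2567, 2164, 1866 and 2102, all above the unwounded ones. GCN2KO cultures had 3974, 4773, 6039.6, 4936 and 5969 unwounded and 4339, 4400.3, 4369, 4706 and 3708 after HDW, so that the lowest of them, at 3708, was above the highest WT HDW culture, at 2567. DDIT3 was 7.21-fold higher in GCN2KO unwounded cells (edgeR log2 fold change 2.85, SE 0.17, adjusted p = 6.97e-10). HDW raised it 2.9-fold in WT cells (log2 fold change 1.53, SE 0.15, adjusted p = 6.52e-07). The change in GCN2KO cells was -0.25 with overlapping groups (95% interval -0.45 to -0.04, edgeR adjusted p = 0.0999), and it passed as -0.33 without replicate 1 of GCN2KO unwounded (edgeR adjusted p = 0.0274). The interaction was -1.80 (SE 0.2, edgeR adjusted p = 8.73e-07). In the HDW cultures it was still 2.06-fold higher in GCN2KO cells (log2 fold change 1.04, SE 0.091, adjusted p = 1.75e-07), and 1.09 without replicate 5 of GCN2KO HDW.

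DDIT3 shares 39.6% of its exonic bases with other genes, chiefly with its neighbour MARS1 on the opposite strand (355 bases), and with MBD6 and ENSG00000285133. MARS1, the methionyl-tRNA synthetase gene and an ATF4 target, also rose in GCN2KO unwounded cells, but by less (edgeR log2 fold change 1.15, SE 0.1, adjusted p = 4.89e-08). With HDW in WT cells MARS1 rose as well (log2 fold change 1.22, SE 0.092, adjusted p = 4.49e-08). After HDW the 2 genes parted, since MARS1 was slightly lower in GCN2KO than in WT cells (log2 fold change -0.15, SE 0.057, adjusted p = 0.0285) while DDIT3 was higher. How shared reads moved either count was not tested.

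CEBPG, a short C/EBP protein that pairs with ATF4 (ENSG00000153879, chromosome 19, 33373685 to 33382686, + strand), followed the stepped pattern of DDIT3 in smaller size. Normalized read counts were 2613, 2912, 2579.5, 2961 and 2809.7 in WT unwounded and 3649, 4107, 3987, 3794 and 3780.4 in WT HDW cultures, with no overlap. GCN2KO cultures had 6353, 5935, 6189.6, 5709 and 6329.6 unwounded and 4934, 5361, 5252, 5266 and 5801 after HDW, all above the WT cultures. CEBPG was 2.2-fold higher in GCN2KO cells unwounded (edgeR log2 fold change 1.14, SE 0.063, adjusted p = 3.21e-10) and 1.38-fold higher after HDW (log2 fold change 0.46, SE 0.048, adjusted p = 9.18e-07). HDW raised it 1.39-fold in WT cells (log2 fold change 0.47, SE 0.045, adjusted p = 4.87e-07), and the log2 change in GCN2KO cells was -0.19 (SE 0.062, edgeR adjusted p = 0.0445, 0.0225 to 0.115 with single libraries left out). That change no longer passed without replicate 1, 3 or 5 of GCN2KO unwounded, or without any of replicates 1 to 4 of GCN2KO HDW. It was also lost with library size alone (edgeR adjusted p = 0.0577), with no filter on low counts (0.105) and after thinning to the shallowest library (0.0559). The interaction was -0.67 (SE 0.077, edgeR adjusted p = 9.45e-07).

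CEBPB, the C/EBP factor that keratinocytes use in differentiation (ENSG00000172216, chromosome 20, 50190830 to 50192668, + strand), hardly moved. Its normalized read counts ranged over 3118 to 3692 for WT unwounded, 3621 to 4445 for WT HDW, 3528 to 4004 for GCN2KO unwounded and 3148 to 3539.6 for GCN2KO HDW cultures. Genotype gave a log2 difference of 0.12 unwounded (95% interval -0.01 to 0.25, edgeR adjusted p = 0.138). HDW gave a small rise in WT cells (log2 fold change 0.20, SE 0.063, adjusted p = 0.0146), with overlapping groups, and -0.14 in GCN2KO cells (-0.26 to -0.01). After HDW CEBPB was 1.18-fold lower in GCN2KO than in WT cells (log2 fold change -0.24, SE 0.062, adjusted p = 0.00327), without overlap. The interaction was -0.35 (SE 0.09, edgeR adjusted p = 0.00634). The antisense gene CEBPB-AS1 overlaps 12.6% of its exonic bases, but had only 15.1 ± 5.38 to 9.73 ± 2.37 normalized read counts (means ± SD, n = 5) from GCN2KO unwounded to GCN2KO HDW cells.

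TRIB3, a pseudokinase that binds ATF4 and CHOP and curbs them, showed the largest differences of the 10 in every comparison but 2, GCN2KO against WT after HDW and HDW in GCN2KO cells (ENSG00000101255, chromosome 20, 362835 to 397559, + strand). WT unwounded cultures had 743, 1490.0, 675, 1457 and 1181 normalized read counts and WT HDW cultures 5026, 9808, 7730.0, 5391 and 6322. GCN2KO cultures had 13966, 14305, 14437, 14908 and 14031 unwounded and 12656, 13383, 13106, 11496 and 13304 after HDW. The 3 levels were apart, since the lowest WT HDW culture was above the highest unwounded one, and every GCN2KO culture was above every WT HDW culture. TRIB3 was 12.9-fold higher in GCN2KO cells unwounded (edgeR log2 fold change 3.69, SE 0.19, adjusted p = 1.17e-10) and rose 6.13-fold with HDW in WT cells (log2 fold change 2.62, SE 0.22, adjusted p = 1.3e-07). In GCN2KO cells all 5 HDW cultures were below all 5 unwounded ones, but the log2 change of -0.15 did not pass (95% interval -0.27 to -0.03, edgeR adjusted p = 0.0838, 0.0197 in DESeq2). The interaction was -2.79 (SE 0.25, edgeR adjusted p = 2.98e-08). The difference between genotypes after HDW was 1.87-fold (log2 fold change 0.90, SE 0.14, adjusted p = 6.55e-05), under the fold threshold.

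CHAC1 encodes an enzyme that breaks down glutathione (ENSG00000128965, chromosome 15, 40952962 to 40956512, + strand). It had 125, 236, 100.2, 239 and 174 normalized read counts in WT unwounded cultures and 713, 971, 868, 789 and 835 in WT HDW cultures. In GCN2KO cultures it had 1277, 1254, 1402, 1387 and 1314 unwounded and 1304, 1451, 1487, 1373 and 1466 after HDW. WT unwounded, WT HDW and the GCN2KO groups lay apart in that order, and the 2 GCN2KO groups overlapped. CHAC1 was 7.54-fold higher in GCN2KO cells unwounded (edgeR log2 fold change 2.92, SE 0.17, adjusted p = 3.93e-10) and 1.7-fold higher after HDW (log2 fold change 0.76, SE 0.071, adjusted p = 3.1e-07). HDW raised it 4.71-fold in WT cells (log2 fold change 2.23, SE 0.16, adjusted p = 2.59e-08) and changed it by 0.10 on the log2 scale in GCN2KO cells (95% interval -0.02 to 0.23, edgeR adjusted p = 0.231). The interaction was -2.15 (SE 0.18, edgeR adjusted p = 1.9e-08). Its relative CHAC2, which acts on the same substrate, was also higher in GCN2KO unwounded cells (edgeR log2 fold change 1.56, SE 0.17, adjusted p = 6.99e-07), at a far lower level of 48.4 ± 8.14 to 139.9 ± 31.6 normalized read counts (means ± SD, n = 5).

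SESN2 and DDIT4 both encode inhibitors of the growth kinase complex mTORC1, SESN2 through sensing of leucine and DDIT4 through the TSC proteins. SESN2 (ENSG00000130766, chromosome 1, 28259518 to 28282491, + strand) had normalized read counts from 1272 to 1643 for WT unwounded, 2063 to 2902 for WT HDW, 2800.5 to 3274 for GCN2KO unwounded and 3079.5 to 3320.4 for GCN2KO HDW cultures. It was 2.13-fold higher in GCN2KO cells unwounded (edgeR log2 fold change 1.09, SE 0.08, adjusted p = 6.87e-09) and 1.35-fold higher after HDW (log2 fold change 0.43, SE 0.077, adjusted p = 0.000174). HDW raised it 1.67-fold in WT cells (log2 fold change 0.74, SE 0.091, adjusted p = 6.42e-06), and the change in GCN2KO cells was 0.10 (95% interval -0.02 to 0.23). The interaction was -0.65 (SE 0.12, edgeR adjusted p = 0.000222).

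DDIT4 (ENSG00000168209, chromosome 10, 72273919 to 72276036, + strand), the most abundant of the 10, differed little. It ranged over 17357 to 19673 normalized read counts in WT unwounded and 18477 to 20353 in WT HDW cultures, and over 19797 to 26835 in GCN2KO unwounded and 16569.5 to 21945 in GCN2KO HDW cultures. It was 1.3-fold higher in GCN2KO cells unwounded (edgeR log2 fold change 0.38, SE 0.08, adjusted p = 0.000486). The other pairwise differences did not pass, with log2 intervals of -0.11 to 0.16 between genotypes after HDW, 0.01 to 0.17 for HDW in WT cells and -0.44 to -0.07 for HDW in GCN2KO cells. Without replicate 2 of WT unwounded, its highest library there, HDW in WT cells gave 0.12 (edgeR adjusted p = 0.0183). The change of -0.26 with HDW in GCN2KO cells (edgeR adjusted p = 0.0642) passed in 5 of 18 other settings. It was -0.32 without replicate 2 of GCN2KO unwounded (edgeR adjusted p = 0.0195) and -0.30 without replicate 5 of GCN2KO HDW (0.0403). The adjusted p was 0.0304 in DESeq2, 0.0429 in edgeR with no filter on low counts and 0.00971 with all 20 samples in one fit. The interaction was -0.36 (SE 0.11, edgeR adjusted p = 0.018).

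The spread between cultures was itself uneven. In WT unwounded cells the coefficient of variation was 35.9% for CHAC1, 34.7% for TRIB3, 29.5% for DDIT3 and 21.4% for ATF3. For CEBPB, CEBPG, ATF5, ATF4 and DDIT4 it was 5.06% to 7.54%. In GCN2KO unwounded cells it was 2.63% for TRIB3 and 4.94% for CHAC1, but 20.1% for ATF3 and 16.9% for DDIT3.

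The most variable mRNAs of WT cells moved together from culture to culture. Replicates 1 and 3 of WT unwounded had the 2 lowest values for ATF3, DDIT3, TRIB3, CHAC1 and SESN2 alike, and replicate 2 was among the 2 highest for all 5. In WT HDW, replicate 2 was the highest and replicates 1 and 4 were the 2 lowest for all 5. In the GCN2KO groups no replicate held such a place for all 5. Replicate 5 of GCN2KO HDW had the lowest ATF3 and DDIT3 and the highest ATF4, ATF5 and CEBPG. These are descriptions of 5 cultures a group, and no test was made on them.

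**Figure D4:**
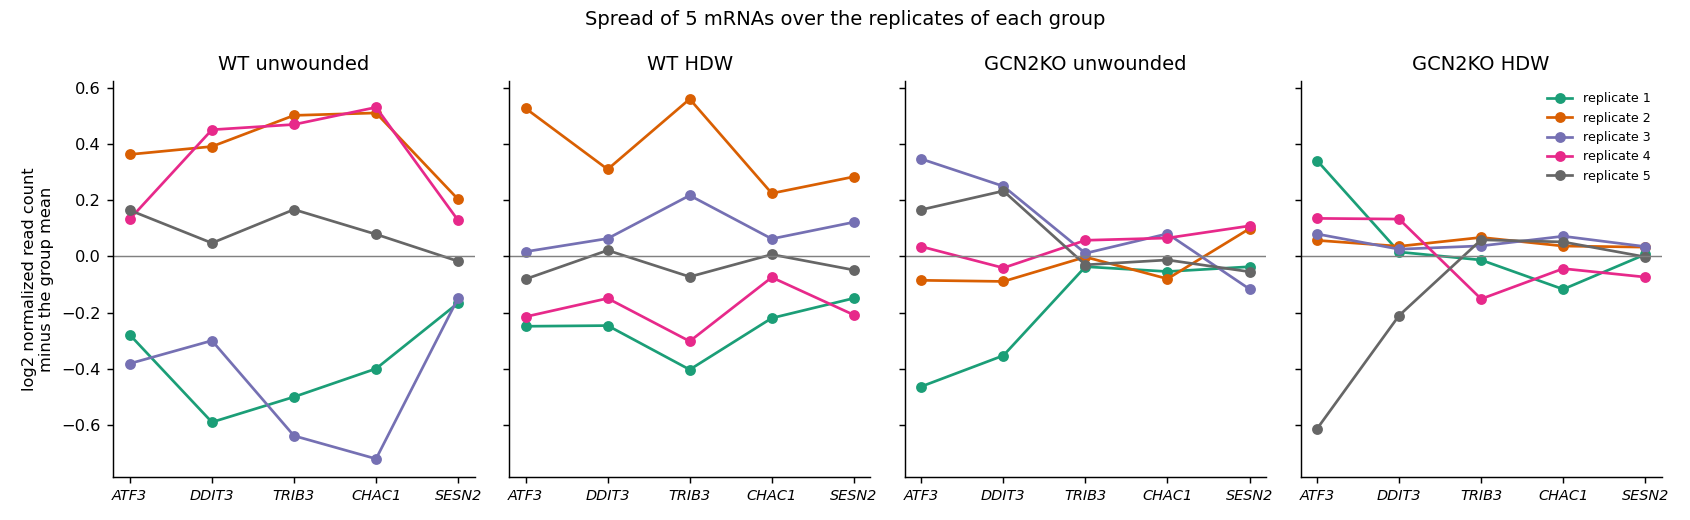
Log2 normalized read count of 5 mRNAs in each replicate, minus the group mean, with 1 line per replicate and 1 panel per group. In WT unwounded cells the lines of replicates 1 and 3 run below the mean for all 5 mRNAs (-0.15 to -0.72) and those of replicates 2 and 4 above it (0.13 to 0.53), whereas in GCN2KO HDW cells the widest gap is ATF3 in replicate 5 (-0.61).

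Lists of related genes placed the 10 among the wider response. Over all genes, DE genes were 8.21% higher and 8.22% lower in GCN2KO unwounded cells, and 7.1% and 7.83% after HDW. With HDW they were 2.62% and 1.55% in WT cells, and 0.475% and 0.196% in GCN2KO cells. For the interaction they were 1.16% and 2.15%. Of 27 ATF4 targets in amino acid metabolism and transport, 16 were DE genes and higher in GCN2KO unwounded cells, and 0 were lower. The median log2 fold change was 1.10. CTH, which makes cysteine from cystathionine, had the largest change, from 62.1 ± 12 to 1009.9 ± 45.6 normalized read counts (means ± SD, n = 5, edgeR log2 fold change 4.03, SE 0.11, adjusted p = 2.49e-13). SLC7A11, the cystine importer (log2 fold change 2.87, SE 0.21, adjusted p = 5.25e-09), and ASNS, the asparagine synthetase (log2 fold change 2.12, SE 0.14, adjusted p = 2.65e-09), were also higher. With HDW in WT cells 14 of the 27 were DE genes, all higher, with CTH again the largest (log2 fold change 2.80, SE 0.17, adjusted p = 3.74e-09). With HDW in GCN2KO cells 0 were DE genes in edgeR or DESeq2, 8 were lower by adjusted p alone and 10 had an unadjusted p under 0.05. By adjusted p alone 22.7% of all genes passed there, in either direction. The interaction called 16 lower. After HDW only CTH was a DE gene between genotypes (log2 fold change 1.16, SE 0.11, adjusted p = 5.15e-07), and the list's median was 0.04. ASNS was then lower in GCN2KO than in WT cells (log2 fold change -0.31, SE 0.076, adjusted p = 0.00207), with overlapping groups, whereas SLC7A11 stayed higher (log2 fold change 0.96, SE 0.11, adjusted p = 2.16e-06). ASNS had 1073 ± 272 to 4701 ± 583 normalized read counts from WT unwounded to WT HDW cells and 4669 ± 561 to 3787 ± 254 from GCN2KO unwounded to GCN2KO HDW cells. The mean of ASNS in WT HDW cells was thus close to that in GCN2KO unwounded cells, which was not tested. For ATF4, ATF3, DDIT3, CEBPG, TRIB3, CHAC1 and SLC7A11, WT HDW cultures were below all GCN2KO unwounded cultures. The 2 groups overlapped for CEBPB, SESN2 and DDIT4, and ATF5 was higher in WT HDW. These 2 groups differ in both genotype and HDW, and the share of all genes that separate in this way was not counted. The separation can thus not be read as particular to these genes.

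Genes of the XBP1 and ATF6 arms of the unfolded protein response, which run beside the eIF2 branch, moved in the same comparisons. Of 17, 14 were DE genes and higher in GCN2KO unwounded cells (median 1.45), with HERPUD1, an ER protein of degradation, the largest (log2 fold change 2.5, SE 0.16, adjusted p = 1.41e-09). With HDW in WT cells 5 of 17 were DE genes, all higher, led by SDF2L1, an ER chaperone partner (edgeR log2 fold change 1.79, SE 0.14, adjusted p = 6.42e-08). With HDW in GCN2KO cells 0 were DE genes in edgeR or DESeq2, and 3 had an unadjusted p under 0.05. At least 22.7% of all genes did, the share that passed by adjusted p. Between genotypes after HDW the list had a median of 0.55. By adjusted p alone 14 of 17 were higher in GCN2KO cells, against 71.7% of all genes in either direction. Of the 14, DNAJB9 and HSPA5, named here for the small count, were DE genes. The interaction called 7 lower, with a median of -0.81.

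Of 12 CHOP targets and stress effectors, 4 were DE genes and higher in GCN2KO unwounded cells, STC2, GDF15, PPP1R15A and VLDLR (list median 0.45). STC2, a secreted glycoprotein, led (edgeR log2 fold change 2.83, SE 0.14, adjusted p = 1.05e-10). PPP1R15A encodes GADD34, the phosphatase subunit that reverses eIF2 phosphorylation (edgeR log2 fold change 1.42, SE 0.084, adjusted p = 6.1e-10). It rose with HDW in WT cells just under the fold threshold (log2 fold change 0.98, SE 0.075, adjusted p = 5.28e-08). STC2 rose with HDW too (log2 fold change 1.81, SE 0.13, adjusted p = 2.02e-08), with VLDLR, and KLHL24 was lower. In GCN2KO cells HDW made 0 of the 12 DE genes in edgeR or DESeq2, and 4 had an unadjusted p under 0.05. After HDW GDF15 and STC2 were higher in GCN2KO cells, with a list median of -0.05. Of 10 genes of eIF2 kinases, their regulators and phosphatase subunits, the DE genes were PPP1R15A and the edited EIF2AK4 in unwounded cells, EIF2AK4 alone after HDW, and 0 with HDW in either genotype in edgeR or DESeq2. An unadjusted p under 0.05 was seen for 6 of the 10 with HDW in WT and for 4 in GCN2KO cells. Over all genes that share is at least 51.3% in WT and 22.7% in GCN2KO cells, the shares that passed by adjusted p.

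The bZIP and protein relatives of the 10 did not move as a block. Of 14 relatives, 12 were tested, and CHAC2 was higher and CEBPD lower in GCN2KO unwounded cells. CEBPD was also lower in GCN2KO than in WT cells after HDW, and JDP2 had a negative interaction. HDW made 0 of them DE genes in either genotype in edgeR or DESeq2, with an unadjusted p under 0.05 for 8 in WT and 6 in GCN2KO cells. At least 51.3% of all genes in WT and 22.7% in GCN2KO cells fall under it, the shares that passed by adjusted p. Of 12 AP-1 genes tested, FOS was lower in GCN2KO unwounded cells (edgeR log2 fold change -1.05, SE 0.12, adjusted p = 1.37e-06), and FOSL1 was the single DE gene with HDW, in WT (log2 fold change 1.58, SE 0.061, adjusted p = 4.94e-11) and in GCN2KO cells (log2 fold change 1.08, SE 0.089, adjusted p = 2.07e-05). Its interaction was -0.51 (SE 0.11, edgeR adjusted p = 0.00112).

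Targets of p53 and hypoxia, which are other inputs of SESN2, ATF3 and DDIT4, were also counted. Such counts do not measure those inputs. Of 14 p53 targets, GDF15, CDKN1A and RRM2B were higher and TP53I3 lower in GCN2KO cells, both unwounded and after HDW, and GDF15 led unwounded (edgeR log2 fold change 2.18, SE 0.13, adjusted p = 7.24e-10). GDF15 is also on the list of CHOP targets above, and the p53 list had a median of -0.05 in that comparison. With HDW 0 were DE genes in either genotype in edgeR or DESeq2, while an unadjusted p under 0.05 was seen for 12 in WT cells and 7 in GCN2KO cells. With HDW in WT cells 10 of the 14 were lower and 2 higher by adjusted p alone (median -0.32), where SESN2 was higher. In GCN2KO cells 3 were lower and 2 higher (median -0.03). By that rule 51.3% of all genes passed in WT cells and 22.7% in GCN2KO cells. Of 12 hypoxia targets, VEGFA, CA9, PFKFB4 and BNIP3 were higher in GCN2KO unwounded cells, VEGFA by the most (edgeR log2 fold change 1.42, SE 0.086, adjusted p = 8e-10). With HDW in WT cells EGLN3 (log2 fold change -1.29, SE 0.1, adjusted p = 8.88e-08) and ADM were lower. By adjusted p alone 7 of the 12 were lower and 2 higher there, against 51.3% of all genes in either direction. VEGFA was among the higher ones (edgeR log2 fold change 0.79, SE 0.1, adjusted p = 1.25e-05). ANGPTL4 was higher with HDW in GCN2KO cells, and PFKFB4 and CA9 were higher in GCN2KO than in WT cells after HDW. The list median was then 0.48. By adjusted p alone 8 of 12 were higher and 2 lower, against 71.7% of all genes in either direction. These lists were described by counts beside the shares over all genes given above, and no list was tested as a set. Counts at an unadjusted p under 0.05 have no exact share beside them, since it was not counted. It is at least the share by adjusted p, 51.3% with HDW in WT cells and 22.7% in GCN2KO cells. These counts are thus not read as responses.

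**Figure D5:**
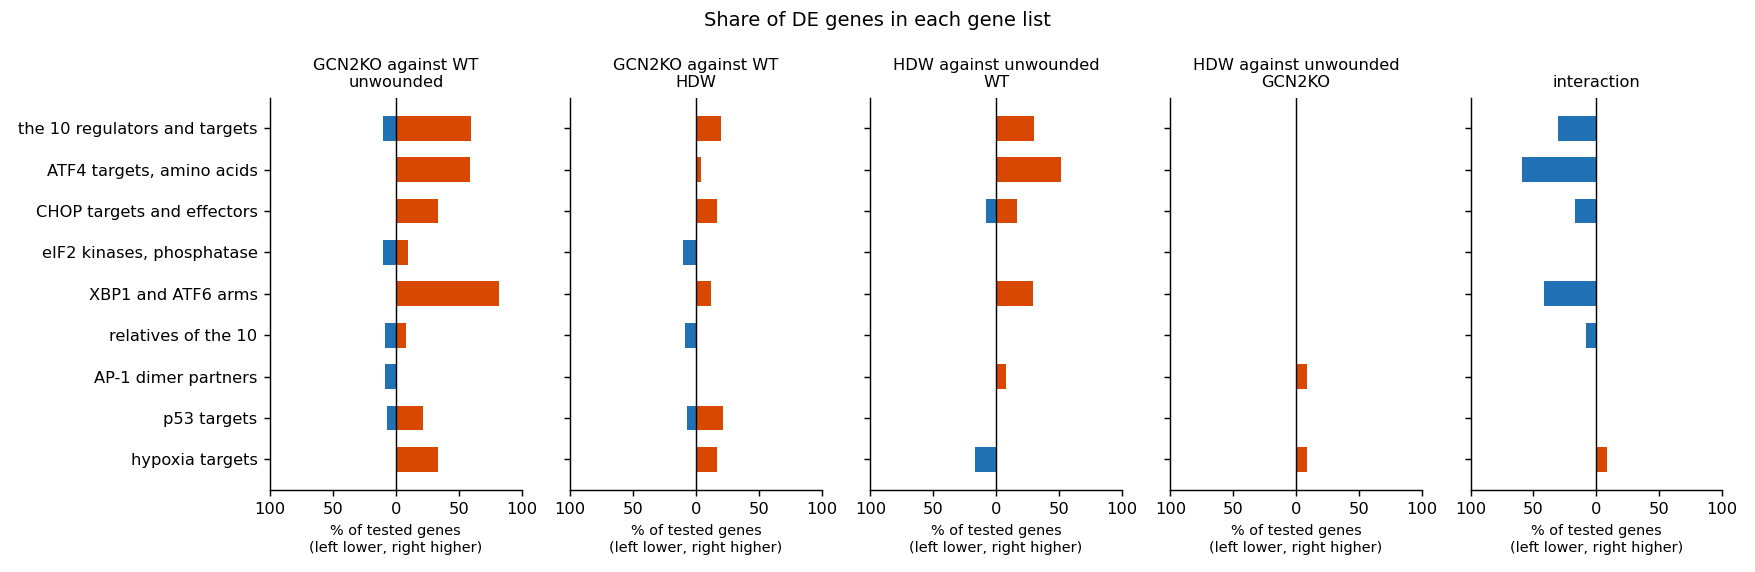
Percent of the tested genes of each list that were DE genes, higher to the right (orange) and lower to the left (blue), in the 5 comparisons, with the 10 ISR genes on top. The amino acid and XBP1 and ATF6 lists hold 16 of 27 and 14 of 17 higher genes in GCN2KO unwounded cells, and the panel for HDW in GCN2KO cells holds a single AP-1 gene and a single hypoxia target.

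Over the 20 libraries, the genes whose log2 CPM was most like that of DDIT3 were SEL1L (Pearson's r = 0.994), TBRG1 (0.992), HSPA5 (0.991), PDIA3 (0.990) and GFPT1 (0.989), of 16377 genes with a symbol, the 10 left out. HSPA5, the ER chaperone BiP, averaged 75658 normalized read counts without a wound and 163675 after HDW for WT, and 370696 and 337067 for GCN2KO. Those most like ATF4 were RAB38 (0.965), GPX8 (0.952), CLIC4 (0.951), S100P (0.951) and PSPH (0.949). S100P, a calcium-binding protein, averaged 2265 without a wound and 3299 after HDW for WT, and 4684.5 and 3142 for GCN2KO. The 20 points share 4 groups, so these correlations mostly describe the group means and are given without a test.

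The genes around the 10 loci lay near 0 in their medians. Over the genes within 5 Mb on each side, the median log2 difference between GCN2KO and WT unwounded cells lay between -0.18 and 0.06 for the 10 loci. Over whole chromosomes it lay between -0.12 and 0.03.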

How the data were processed

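RNA of 20 NTERT cultures was sequenced. Per the study's methods, the authors trimmed reads (Trimmomatic), aligned them (STAR, GRCh38) and assigned those that mapped to a single place to exons (featureCounts). The deposited files hold the resulting counts, which were not normalized. Strandedness and the annotation release are not given in the sources used here. The 57500 gene IDs were matched to GENCODE 44 for symbols, positions and exon lengths (56410 matched). No 2 libraries held identical counts.

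Counts were tested with edgeR 4.0.16 (R 4.3.3, quasi-likelihood functions glmQLFit and glmQLFTest, TMM, filterByExpr with minimum count 10 and minimum total 15). Each pairwise comparison used its 10 libraries, and the interaction all 20. The SE was taken as the absolute log2 fold change over the root of its F statistic. For normalized read counts, each library's effective size (TMM over 20 libraries) was set relative to the average library and divided out. All 10 genes passed the filter in every comparison. With 14083504 to 34611570 counts per library, each of the 10 genes had at least 100 normalized read counts in each library. Raw counts were below 100 in shallow WT unwounded libraries, with CHAC1 at 63 and 83 in replicates 1 and 3 and ATF3 at 92 in replicate 1.

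The 10 genes, the lists and the tests were chosen with earlier results of these data known. Genes named beside the 10 are the edited gene, the gene of each list with the largest change among DE genes in GCN2KO against WT unwounded cells and in WT HDW, plus PPP1R15A, ASNS and SLC7A11, and the 5 genes most correlated with ATF4 and with DDIT3. Genes behind a count of 5 or fewer, and genes that overlap the 10, were named after their values were seen. Replicate numbers come from the titles, and nothing says that they pair cultures. Other settings were DESeq2 1.42.0, DESeq2 size factors within edgeR, no TMM, filters of none or of a mean count of 50, a joint fit of the 20 samples, the replicate block, adjusted p alone, thinning to the shallowest library and leaving out each sample. The pipeline was tested on simulated data. Promoters were taken from RefSeq (GRCh38.p14) and searched in Python 3.11, with pandas 2.3.3, numpy 2.4.6 and matplotlib 3.10.9 for tables and figures. Protein features were not used here.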

Additional observations from a re-analysis of the deposited data

Results flagged for a closer look

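Of the 40 combinations of the 10 genes and 4 groups, 3 had a culture that stood apart from the other 4 by Dixon's criterion, where chance marks about 1 in 20. ATF3 had 409 normalized read counts in replicate 2 of WT HDW, against 239 to 287 in the other 4. ATF5 had 564 in replicate 5 of GCN2KO HDW, against 435 to 462. DDIT4 had 19673 in replicate 2 of WT unwounded, against 17357 to 17979.

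The response to HDW differed between WT and GCN2KO cells for 9 of the 10 genes by the interaction test (edgeR, adjusted p alone). By that rule 23.7% of all 16536 genes passed. With the fold threshold as well, 3 of the 10 were called, TRIB3, CHAC1 and DDIT3. The difference in log2 fold change, GCN2KO minus WT, was -2.79 for TRIB3, -2.15 for CHAC1, -1.80 for DDIT3, -0.67 for CEBPG, -0.65 for SESN2, -0.61 for ATF4, -0.36 for DDIT4, -0.35 for CEBPB and 0.54 for ATF5.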

How the results depend on the processing

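Of 990 alternative values of the 50 log2 fold changes of the 10 genes, 984 kept their direction. The 6 others took the opposite sign near 0, and 0 of them passed by adjusted p. DDIT4 between genotypes after HDW (0.02) was -0.02 without replicate 2 or 5 of GCN2KO HDW and 0.00, just under 0, with no filter, and reached 0.08 as other single libraries were left out. ATF5 with HDW in GCN2KO cells (0.01) was -0.01 after thinning, -0.04 without GCN2KO unwounded replicate 5 and -0.06 without GCN2KO HDW replicate 5, and reached 0.06. The side of the DE thresholds changed for DDIT3 (0.98 without replicate 1 of WT HDW) and TRIB3 (1.06 without replicate 2 of WT HDW) for GCN2KO against WT after HDW, so that leaving out single libraries gave 1 to 3 of the 10 as DE genes there. By adjusted p alone the counts of the 10 between genotypes after HDW were 6 higher and 2 lower, where 71.7% of all genes passed. With HDW they were 7 higher and 1 lower among WT cells (51.3% of all genes) and 2 lower among GCN2KO cells (22.7%). For the interaction they were 1 higher and 8 lower (23.7%).

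The samples that share a replicate number did not deviate together as a rule, though some pairs did. The mean r was -0.254 to 0.106 over the 4 comparisons, and 0 to 3 of 10 samples correlated best with their own number. Single pairs had r of -0.381 to 0.412 for HDW in WT cells and -0.744 to 0.0639 for HDW in GCN2KO cells. Between genotypes they had -0.073 to 0.228 unwounded and -0.123 to 0.133 after HDW. Of 5 pairs, 3, 0, 3 and 2 were above 0.1 in that order. With the replicate block, the falls of ATF4 (adjusted p = 0.0655) and CEBPG (0.111) with HDW in GCN2KO cells no longer passed, and the rises of ATF3 (0.0147) and DDIT4 (0.0489) with HDW in WT cells did. The block changed no other call of the 10 in edgeR. With library size alone, the interaction of DDIT4 had an adjusted p of 0.0503.

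Counts over all genes depended on the filter and the rule, which sets the background. A mean of at least 50 counts gave 796 higher and 834 lower for GCN2KO unwounded, 563 and 765 after HDW, 250 and 121 with HDW among WT cells, 37 and 3 with HDW among GCN2KO cells, and 73 and 207 for the interaction. No filter gave 2132 higher for GCN2KO unwounded, 1950.0 after HDW, 397 lower with HDW among WT cells, and 114 higher and 85 lower with HDW among GCN2KO cells. Adjusted p alone gave 5130.0 and 5083 for GCN2KO unwounded, 5690.0 and 5677 after HDW, 4013 and 3865 with HDW among WT cells, 1880.0 and 1706 with HDW among GCN2KO cells, and 1851 and 2075 for the interaction. DESeq2 gave 1737 higher for GCN2KO against WT after HDW. For HDW in GCN2KO, the 31 lower genes became 18 in DESeq2, 54 with all 20 samples in one fit, 15 after thinning and 20 to 59 as single libraries were left out (20 without GCN2KO unwounded replicate 5, 47 without its replicate 4 and 59 without GCN2KO HDW replicate 5). The cause of these shifts was not tested. Overlapping exons limit DDIT3, ATF5 and CEBPB, since the handling of their shared reads is not stated.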
